A study of Mus musculus with 14 samples.

Results

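Endoplasmic reticulum (ER) stress and unfolded protein response genes were followed in mouse liver through 10 genes chosen by name: Hspa5, Hsp90b1, Sdf2l1, Pdia4, Dnajb9, Herpud1, Xbp1, Atf4, Ddit3 and Trib3. A probe belonged to a gene when the deposited name or the current symbol matched, with the older name Tra1 counted as Hsp90b1. All 10 genes were found, on 11 of the 41174 distinct probes, and all 10 were among the 32672 genes tested. Every one of these probes was well above background on all 14 arrays in both dyes.

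The arrays measured liver RNA of male C57BL/6 mice aged 1 year, all fed ad lib, with 1 mouse on each 2-colour array. Of these, 5 mice ate the AIN-93G standard diet (standard-diet mice), 5 ate a modified AIN-93G diet with 60% of calories from fat (high-calorie mice), and 4 ate the latter diet plus resveratrol, a polyphenol of plants, at 0.04% (resveratrol mice). The mouse's RNA carried Cy3 and a pool of 5 standard-diet livers carried Cy5 on every array, with no dye swap, and the labels do not say whether the pool held the same animals. Every value is therefore a log2 ratio of mouse to pool in which a gene's fixed dye effect is included, so ratios are compared between diets and not between genes. In whole liver, fewer cells of a type and less RNA per cell cannot be told apart.

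The ER folds secreted and membrane proteins, of which hepatocytes make large amounts. When unfolded proteins accumulate, the sensors IRE1, PERK and ATF6 signal to the nucleus: IRE1 splices Xbp1 mRNA, cleaved ATF6 and spliced XBP1 raise chaperone and degradation genes, and PERK phosphorylates eIF2alpha, which favours translation of Atf4 and, through it, Ddit3 and Trib3. ATF6 and XBP1 act with NF-Y at ER stress response elements in the promoters of chaperone genes.

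The promoters of these genes differed in the elements they hold. Windows from 250 bases before to 50 bases after the start, from RefSeq on GRCm38.p6, were found for all 10 genes and searched on both strands. The full ER stress response element (ERSE, CCAAT and CCACG with 9 free bases between them) was in 0.119% of 32851 windows, and among the 10 genes it was in Hspa5, from position -65 to -47, and in Hsp90b1, at -212 to -194 and again on the opposite strand at -107 to -89. The compact form ERSE-II (ATTGG and CCACG with 1 free base between them) was in 0.0365% of windows and in Herpud1, at -52 to -42. Sdf2l1 had neither, and its nearest letters were the 5-base core CCACG, which is in 32.8% of all windows, overlaps both elements and was in 7 of the 10 genes. The stretches below carry those elements and belong to the genes with the widest diet differences, with element letters in capitals and the last base counted back from the start. They lie at chr2:34771990-34772059 (plus strand, Hspa5), chr8:94386339-94386408 (plus strand, Herpud1), chr10:86705515-86705674 (minus strand, Hsp90b1) and chr16:17132384-17132443 (minus strand, Sdf2l1).
Hspa5: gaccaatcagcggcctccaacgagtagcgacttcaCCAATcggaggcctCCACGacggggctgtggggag
Herpud1: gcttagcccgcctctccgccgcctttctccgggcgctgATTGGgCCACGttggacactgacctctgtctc
Hsp90b1: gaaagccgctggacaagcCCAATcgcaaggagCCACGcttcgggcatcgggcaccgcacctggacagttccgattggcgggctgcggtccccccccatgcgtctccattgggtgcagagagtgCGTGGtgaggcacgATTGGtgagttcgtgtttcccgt
Sdf2l1: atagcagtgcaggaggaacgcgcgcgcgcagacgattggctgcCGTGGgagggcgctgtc

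Other elements were scattered. The unfolded protein response element TGACGTG, in 2.01% of windows, was in Hspa5 alone among the 10. The C/EBP-ATF element TGATGNAAN, bound by ATF4 and CHOP, was in 3.95% of windows and in Herpud1 and Trib3. The CRE-like TGACGTCA, in 1.79% of windows, was in none of the 10, and the windows of Ddit3 and Xbp1 held none of the 6 sequences searched. A match describes letters and is no evidence of binding.

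Between high-calorie and standard-diet mice, Herpud1 fell 2.03-fold. The ER chaperone Sdf2l1 had a difference as wide, 2.07-fold lower, that did not pass, and Hspa5 came next. All 10 genes had a mean log2 ratio below that of standard-diet mice, as 50.8% of all genes did, with a median difference of -0.18 against -0.0021 over all genes tested. The direction held for 6 of the 10 when arrays were centred on their median in place of loess. By limma's adjusted p over all genes, 1 of 10 fell, 0 rose and 9 did not pass, where 9.44% of all genes passed in either direction and 4.07% fell. The share among the 10 was thus close to the background, of which 56.9% were higher in high-calorie mice (79% with median centring, 71.9% in the Cy3 channel alone). The ranges of the diets did not overlap for 2 of 10, Herpud1 and Sdf2l1, against 10.3% of all genes (5.18% with the high-calorie mice lower), and 6 of 10 had an unadjusted limma p under 0.05 against 27.6% of all genes.

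Hspa5 encodes BiP, the HSP70 chaperone of the ER lumen and a repressor of the stress sensors. Its log2 ratio was 0.14, 0.86, 1.29, 0.38 and 0.92 in standard-diet mice 1 to 5. It was -0.055, 0.068, -0.25, 0.22 and 0.10 in the high-calorie mice, and -0.19, -0.55, 0.75 and 0.53 in the resveratrol mice. Standard-diet mouse 1 lay inside the high-calorie range and the other 4 lay above it, while resveratrol mice 1 and 2 were low and mice 3 and 4 high. High-calorie minus standard diet was -0.70 ± 0.24 (SE), a 1.63-fold lower mean that did not pass (limma adjusted p = 0.079, 95% interval -1.22 to -0.18).

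Sdf2l1 encodes an ER-resident partner of BiP and its co-chaperone ERdj3. Its log2 ratio was 0.97, 1.55, 2.22, 1.13 and 1.52 in standard-diet, 0.066, 0.35, 0.17, 0.77 and 0.79 in high-calorie, and 0.47, -0.056, 1.83 and 1.29 in resveratrol mice. All 5 standard-diet mice lay above all 5 high-calorie mice, and the resveratrol mice spanned from below the high-calorie range to inside the standard-diet range. The difference of high-calorie from standard diet was -1.05 ± 0.32 (SE), at the edge of the threshold (limma adjusted p = 0.0509), with an interval of -1.72 to -0.37.

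Hsp90b1 encodes GRP94, the HSP90 chaperone of the ER. On the probe used its log2 ratio was -0.17, 1.22, 0.71, -0.0038 and 0.45 in standard-diet, -0.10, -0.20, -0.20, -0.15 and 0.13 in high-calorie, and -0.14, -0.16, 0.45 and 0.34 in resveratrol mice. Standard-diet mice 2, 3 and 5 lay above every high-calorie mouse, and mice 1 and 4 lay within their range. High-calorie minus standard diet was -0.55 ± 0.22 (SE, limma adjusted p = 0.119). The probe under the older name Tra1 followed the same pattern (r = 0.947 over 14 arrays, a description), with a difference of -0.79 ± 0.25 (SE, limma adjusted p = 0.0636 over probes). Another probe, tied to Hsp90b1 only by sharing the deposited name of the probe used, gave -0.68 ± 0.37 (SE, limma adjusted p = 0.252 over probes). For resveratrol minus high-calorie it gave -0.051 ± 0.39 (SE), against 0.23 ± 0.23 (SE) on the probe used.

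Pdia4 and Dnajb9 differed little between diets. Pdia4, or ERp72, is a protein disulfide isomerase, and its ratio to the pool ran from 1.45 to 2.45 on the standard diet, from 1.84 to 2.25 on the high-calorie diet and from 1.91 to 2.31 with resveratrol. With the standard-diet range enclosing that of the high-calorie mice, the difference was -0.076 ± 0.17 (SE, limma adjusted p = 0.807), with an interval of -0.44 to 0.28. Dnajb9, the J-domain protein ERdj4, which delivers clients to BiP, ran from -0.051 to 1.12 on the standard diet, from 0.13 to 0.70 on the high-calorie diet and from -0.20 to 1.13 with resveratrol. Its difference was -0.10 ± 0.26 (SE, limma adjusted p = 0.83), and its interval of -0.66 to 0.45 was wide in either direction. A second probe that shares the Dnajb9 description (r = 0.584 with the first) gave -0.38 ± 0.089 (SE, limma adjusted p = 0.0185 over probes), and another gave -0.26, so the probes of Dnajb9 disagreed on the size.

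**Figure D1:**
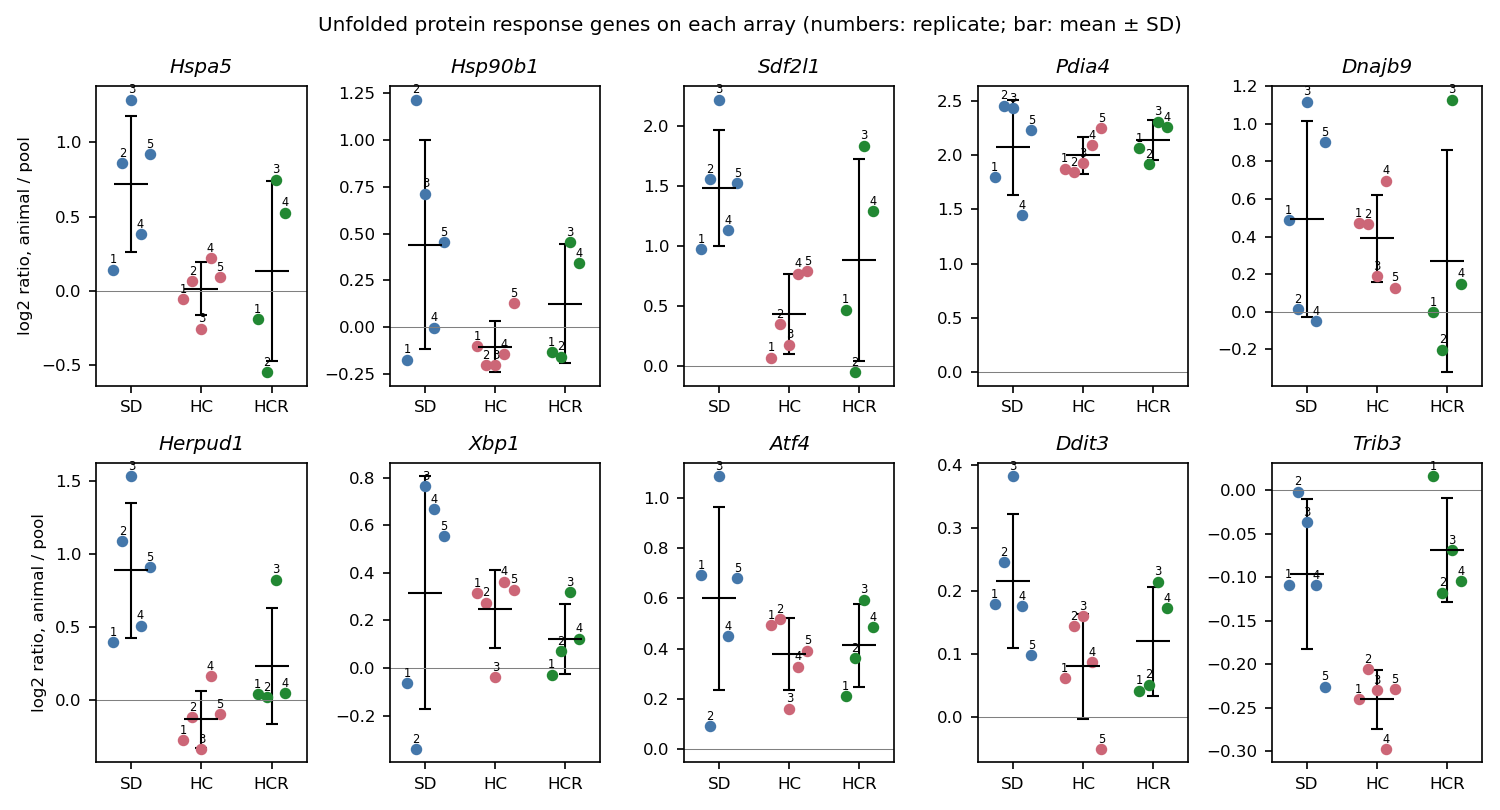
Each panel shows the log2 ratio of mouse to pool of 1 gene, on its own vertical scale, for standard-diet (SD), high-calorie (HC) and resveratrol (HCR) mice, with replicate numbers beside the points and bars for the mean ± SD. In Herpud1 and Sdf2l1 all 5 high-calorie mice lie below all 5 standard-diet mice, and in Hspa5, Sdf2l1 and Hsp90b1 resveratrol mice 3 and 4 lie above mice 1 and 2.

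Herpud1 encodes a ubiquitin-like ER membrane protein that organises the HRD1 complex of ER-associated degradation. Its log2 ratio was 0.39, 1.09, 1.53, 0.51 and 0.91 in standard-diet mice, -0.27, -0.12, -0.33, 0.17 and -0.095 in high-calorie mice, and 0.040, 0.020, 0.83 and 0.045 in resveratrol mice. The high-calorie mice were all below the standard-diet mice with a gap between the groups, and 3 of 4 resveratrol mice lay among the high-calorie values while mouse 3 lay among the standard-diet values. Herpud1 fell by 1.02 ± 0.20 (SE) on the log2 scale, or 2.03-fold (limma adjusted p = 0.0087, interval -1.46 to -0.58). It was the only one of the 10 that passed, and its p ranked 734 among the genes tested.

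The Herpud1 difference kept its direction within each batch that held both diets. Slides were split into 2 series at the widest gap between their barcode numbers, and series 1 held no standard-diet mouse. Image extraction by the scanner software took place on 2 days, and within day 1 (3 standard-diet and 2 high-calorie mice) the difference was -0.87 (limma adjusted p = 0.205), within day 2 (2 and 3 mice) -1.18 (0.0277), and within the slide number series that holds all 5 standard-diet and 3 high-calorie mice -1.07 (0.0514). The call was lost with median centring (-0.63, adjusted p = 0.0734) and without standard-diet mice 2 and 3 (-0.74, adjusted p = 0.0545), the pair with the highest Herpud1. The standard-diet arrays were also dimmer, with a median net Cy3 signal of 30.1 to 62.9 units against 39.3 to 93.9, and with brightness as a covariate the difference was -0.98 (limma adjusted p = 0.0994).

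The transcription factors showed smaller differences. Xbp1, whose mRNA is the substrate of IRE1, was at -0.064, -0.34, 0.76, 0.67 and 0.55 in standard-diet, 0.31, 0.27, -0.038, 0.36 and 0.33 in high-calorie, and -0.028, 0.070, 0.32 and 0.12 in resveratrol mice. The standard-diet values lay on both sides of the high-calorie range, and the difference was -0.068 ± 0.18 (SE, limma adjusted p = 0.838). Splicing of Xbp1 was not measured here. Atf4, whose product is controlled mainly through translation, ran from 0.091 to 1.09 in standard-diet mice, which enclosed the ranges of 0.16 to 0.52 (high-calorie) and 0.21 to 0.60 (resveratrol). Its high-calorie minus standard-diet difference was -0.22 ± 0.14 (SE, limma adjusted p = 0.331, interval -0.53 to 0.084).

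Ddit3 encodes CHOP, the factor tied to cell death under lasting ER stress. It stood at 0.18, 0.25, 0.38, 0.18 and 0.10 in standard-diet, 0.061, 0.14, 0.16, 0.087 and -0.050 in high-calorie, and 0.042, 0.051, 0.21 and 0.17 in resveratrol mice. Standard-diet mice 1 to 4 lay above every high-calorie mouse and mouse 5 did not, and the difference of -0.14 ± 0.058 (SE) did not pass (limma adjusted p = 0.146). It turned to 0.030 with median centring.

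Trib3 encodes a pseudokinase induced by ATF4 and CHOP that binds AKT. Its log2 ratio was -0.11, -0.0014, -0.036, -0.11 and -0.23 in standard-diet, -0.24, -0.21, -0.23, -0.30 and -0.23 in high-calorie, and 0.016, -0.12, -0.069 and -0.10 in resveratrol mice. Standard-diet mouse 5 alone lay in the high-calorie range, and no resveratrol mouse did. High-calorie minus standard diet was -0.14 ± 0.044 (SE, limma adjusted p = 0.0534), and it turned to 0.079 with median centring. A second probe under the Trib3 description gave the opposite sign, 0.35 ± 0.16 (SE, limma adjusted p = 0.165 over probes).

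**Figure D2:**
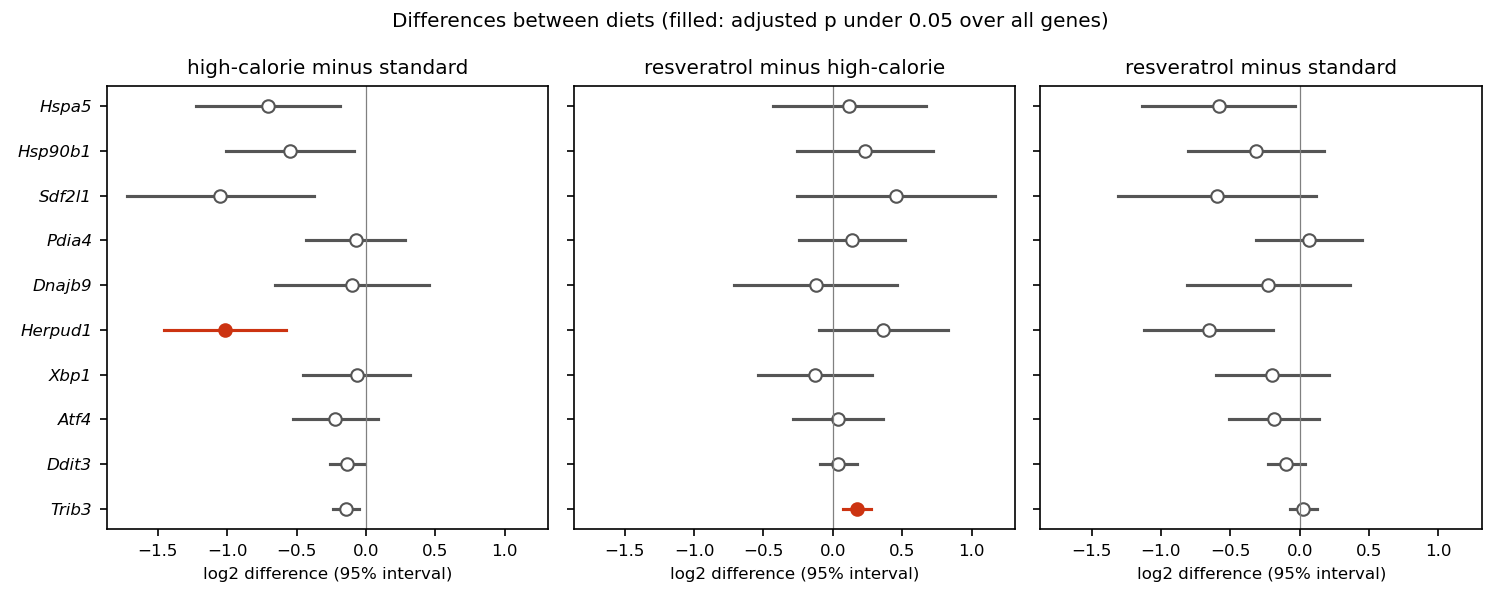
Points show the log2 difference between diets for each gene and lines its 95% interval from limma, in 1 panel for each comparison, with filled points for an adjusted p under 0.05 over all genes. Herpud1 is filled in high-calorie minus standard diet, Trib3 is filled in resveratrol minus high-calorie, and no gene is filled in resveratrol minus standard diet.

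With resveratrol added to the high-calorie diet, Trib3 was 1.13-fold higher with an adjusted p just under the threshold, and no other of the 10 genes passed. The Trib3 call held under 8 of 35 other settings, 1 of which leaves the ratios unchanged and repeats the reported fit. By limma 1 of 10 rose and 0 fell, against 5.39% of all genes called in either direction and 3.16% risen, and Trib3 alone had separate ranges, as 13% of all genes did (6.82% with the resveratrol mice higher). At an unadjusted p under 0.05 the count was likewise 1 of 10, against 22.2% of all genes. The mean ratio was higher in 8 of 10 and lower in 2, where 52.7% of all genes were lower, with a median difference of 0.13 against -0.0068 over all genes, and in 5 of 10 with median centring. This comparison shares the high-calorie arrays with the one before, so the directions of both are not independent.

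The Trib3 difference was 0.17 ± 0.046 (SE) on the log2 scale (limma adjusted p = 0.0469, interval 0.072 to 0.27), above 0 under each setting. Leaving out standard-diet mice, changing the filter or averaging probes cannot change this difference, only its p-value. With each of the 14 mice left out in turn the adjusted p ran from 0.0241 to 0.156, and it passed only without standard-diet mouse 2 or mouse 5. The second probe, which carries the name BC012955, did not follow the first (r = -0.531 over 14 arrays, a description). It was dimmer, with a median net Cy3 signal of 38.7 against 229 units, and gave -0.32 ± 0.17 for resveratrol minus high-calorie (SE, limma adjusted p = 0.282 over probes), so the direction of Trib3 depends on the probe.

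The chaperones and Herpud1 did not differ beyond their spread with resveratrol. Resveratrol minus high-calorie was 0.12 ± 0.26 (SE, limma adjusted p = 0.83) for Hspa5, with an interval of -0.43 to 0.67. It was 0.45 ± 0.33 (SE, limma adjusted p = 0.459) for Sdf2l1 and 0.36 ± 0.22 (SE, limma adjusted p = 0.353) for Herpud1. In Hspa5 and Sdf2l1 resveratrol mice 3 and 4 carried the higher values, and in Herpud1 mouse 3 alone. Without both mice Sdf2l1 was at -0.22 (limma adjusted p = 0.733), Hspa5 at -0.38 (0.422) and Herpud1 at 0.16 (0.762), and 8 of the 10 genes were below the high-calorie mean. For the remaining members the difference lay between -0.13 (Xbp1) and 0.23 (Hsp90b1). All 4 resveratrol arrays were extracted on day 1 with 2 high-calorie arrays, and within that day Trib3 was at 0.20 (limma adjusted p = 0.163), Sdf2l1 at 0.47 (0.74) and Herpud1 at 0.29 (0.753). Within slide series 1 (2 high-calorie and 3 resveratrol mice) the same genes were at 0.22, 0.78 and 0.36, none passing. Within series 2 (3 mice and 1) they were at 0.10, -0.49 and 0.20, values that rest on 1 resveratrol mouse.

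Resveratrol mice 3 and 4 also stood apart in markers of inflammation. The mean log2 ratio of 14 acute-phase genes was 2.08 in mouse 3 and -0.33 in mouse 4, against -1.31 and -1.60 in mice 1 and 2 and -1.54 to -1.13 in the other diets. The mean of 11 Kupffer cell and macrophage markers was 0.039 and 0.29 in mice 3 and 4 against -0.74 and -0.78 in mice 1 and 2, and that of 5 neutrophil markers was 0.41 in mouse 3 and -0.65 to -0.42 in the other 3. Mouse 3 also had the highest mean of 10 hepatocyte markers on any array, at 1.06, against 0.48 to 0.60 in the other 3. Its mean of 7 stellate cell markers, at -0.17, was the lowest on any array. The mean ratio of the 5 chaperone genes was 1.29 and 0.91 in mice 3 and 4 against 0.44 and 0.19 in mice 1 and 2. The part of these markers in the chaperone values was not tested.

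**Figure D3:**
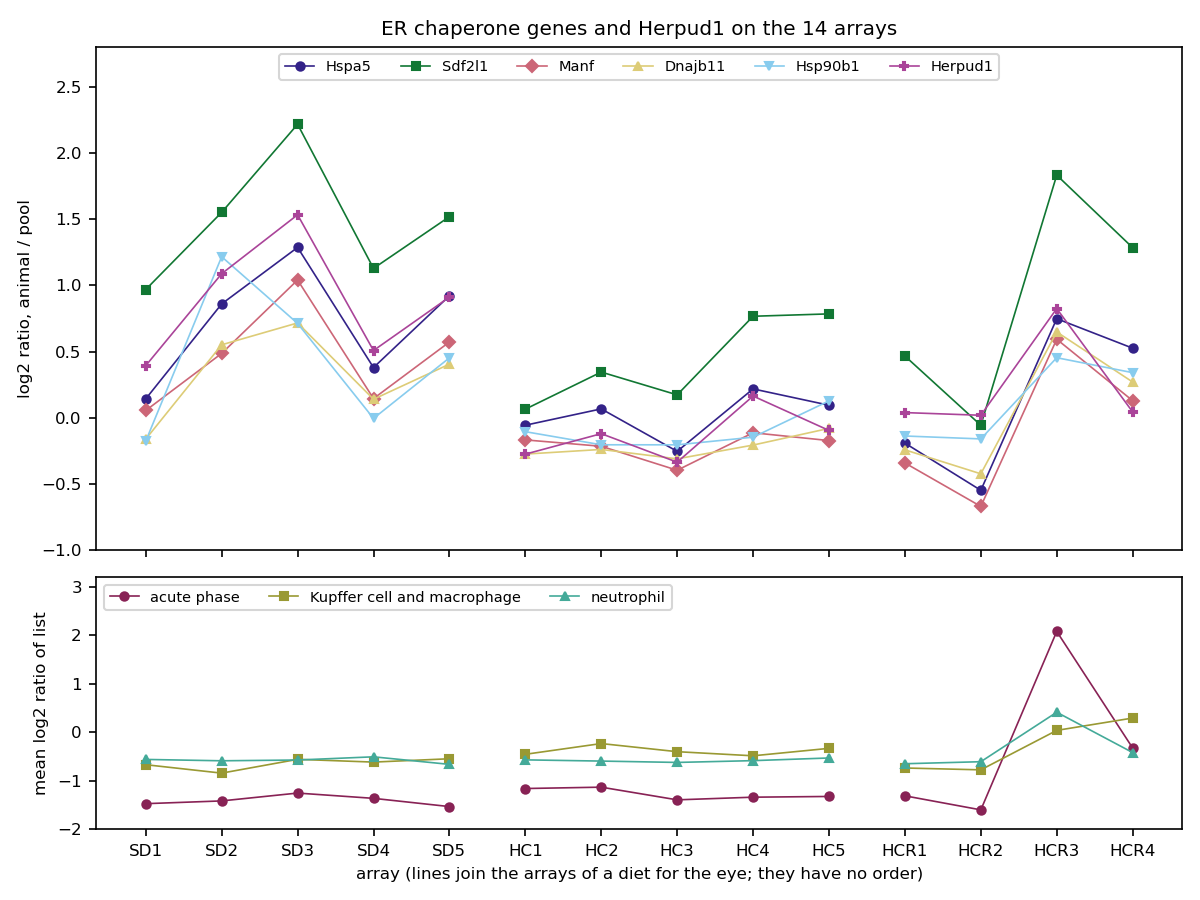
The upper panel shows the log2 ratio of mouse to pool for Hspa5, Sdf2l1, Manf, Dnajb11, Hsp90b1 and Herpud1 on the 14 arrays, and the lower panel the mean log2 ratio of 3 marker lists on the same arrays, with lines joining arrays of a diet as a guide to the eye. Resveratrol mouse 3, with an acute-phase mean of 2.08, is the highest of its diet for each of the 6 genes, and standard-diet mouse 3 is for each but Hsp90b1.

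Against the standard diet, 0 of 10 genes passed in resveratrol mice by limma, where 0.214% of all genes passed, and 2 of 10 had an unadjusted p under 0.05 against 10.6% of all genes. These 2 were Herpud1, at -0.65 ± 0.22 (SE, limma adjusted p = 0.292), and Hspa5, at -0.58 ± 0.26 (SE, limma adjusted p = 0.446). Sdf2l1 was at -0.59 ± 0.33 (SE, limma adjusted p = 0.555). The mean was lower in 8 of 10 genes, against 49.8% of all genes, with a median of -0.21, and none had separate ranges, against 2.94% of all genes. Pdia4 and Trib3 were the other two, at 0.065 and 0.028.

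The 10 genes also differed in how much mice of a diet varied. The SD over mice was larger in the standard diet than in the high-calorie diet for 10 of 10 genes, with a median SD of 0.46 against 0.17 log2 units, and larger in resveratrol than in high-calorie mice for 9 of 10 (median 0.25). The mean of the 5 chaperone genes spanned 0.58 to 1.55 on the standard diet, 0.37 to 0.73 on the high-calorie diet and 0.19 to 1.29 with resveratrol. These spreads are a description, and no test of them was made. The same count was not made over all genes, so the wider spread cannot be called particular to these 10.

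Mice with a high Hspa5 also had high values of other folding genes. With each diet's mean subtracted, 39 of 45 pairs of the 10 genes had a positive correlation over the 14 arrays, with a median r of 0.419 and a range from -0.372 to 0.951. No such count was made for pairs of other genes, so how far it exceeds theirs is not known. The closest pair was Hspa5 and Sdf2l1, and the lowest was Xbp1 and Trib3. Among 13020 genes with a symbol that were well above background on all arrays, those most like Hspa5 were Manf (r = 0.971), a secreted ER stress protein, Dnajb11 (0.960), the co-chaperone ERdj3, Sdf2l1 (0.952), Tdg (0.915), a DNA glycosylase, and Tmed3 (0.915), a protein of the early secretory pathway. Of the 9 other genes of the set, 4 were among the 100 most like Hspa5 and 3 among the 100 most like Herpud1. Herpud1 had Mvd (0.900), of cholesterol synthesis, Cep89 (0.897), Plxnb1 (0.889), Cnr1 (0.888) and Vmn1r37 (0.876) nearest, of which the last is a vomeronasal receptor gene. All points share the pool, the platform and the loess step, and resveratrol mouse 3 lies at the high end of many of them.

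The genes most like Hspa5 from mouse to mouse were not all alike between diets. Manf was at 0.056, 0.49, 1.04, 0.15 and 0.57 in standard-diet and -0.17, -0.21, -0.40, -0.11 and -0.17 in high-calorie mice, with no overlap. High-calorie minus standard diet was -0.67 ± 0.21 (SE, limma adjusted p = 0.06) for Manf and -0.55 ± 0.19 (SE, limma adjusted p = 0.076) for Dnajb11, and neither passed. Tmed3 was at -0.53 (limma adjusted p = 0.0814) and Tdg at 0.0099 (0.915), and the 5 genes nearest to Herpud1 lay between -0.11 and 0.089. With resveratrol Manf ranged from -0.67 in mouse 2 to 0.59 in mouse 3.

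Across the wider pathway, ER chaperone and folding genes stood lowest in high-calorie against standard-diet mice, while the sensors and transcription factors tested had a median near 0. Of 121 genes on 5 lists, 111 were tested, with 12 fallen, 1 risen and 98 not passing by limma. Over all genes 9.44% passed and 4.07% fell. The median difference over the 111 was -0.068, and it was 0.030 with median centring, where 3 fell and 2 rose. With the brightness covariate 4 fell, and with each mouse left out in turn 7 to 25 passed. The lists include the 10 genes, and without them 11 of 101 fell and 1 rose.

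Of 24 ER chaperones and folding enzymes tested, 5 fell, 0 rose and 19 did not pass, where 4.07% of all genes fell. The median was -0.37, and 19 were lower on average, against 50.8% of all genes. With median centring 18 were lower, the median was -0.14 and 0 passed. Ppib, the ER cyclophilin B, fell by 0.56 ± 0.099 (SE, limma adjusted p = 0.00419). Its standard-diet values lay between 0.25 and 0.62 and its high-calorie values between -0.23 and 0.010. Dnajc3, the PERK inhibitor p58IPK, fell by 0.56 ± 0.15 (SE, limma adjusted p = 0.0318), its high-calorie values being tightly grouped between -0.54 and -0.45. Sil1, the nucleotide exchange factor of BiP, fell by 0.17 and Fkbp11, an ER peptidyl-prolyl isomerase, by 0.35 (limma adjusted p = 0.0333 and 0.0337). Txndc11, a thioredoxin-domain protein named after its values were seen, was the fifth, at -0.48 ± 0.13 (SE, limma adjusted p = 0.0356). In each of these 5 but Txndc11 all high-calorie mice lay below all standard-diet mice, as in 5.18% of all genes. Genes picked by passing tend to have separate ranges, so this adds no support to the calls. Within each extraction day 0 of the 24 passed by limma, with medians of -0.30 and -0.40. With each mouse left out in turn the number passing ran from 1 to 9, and it was 1 without standard-diet mouse 3 or without high-calorie mouse 1, 2, 4 or 5.

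Of 17 ER-associated degradation genes 2 fell, where 4.07% of all genes did. These were Herpud1 and Os9, a lectin that brings clients to the HRD1 complex (-0.29 ± 0.054 SE, limma adjusted p = 0.00585). The median was -0.075. Of 27 genes of translocation into the ER and signal peptide processing 3 fell, with a median of -0.030: Ssr4, of the translocon-associated complex (-0.41, limma adjusted p = 0.00552), Srp68, of the signal recognition particle (-0.26, limma adjusted p = 0.00758), and Sec61a1, the channel itself (-0.61, limma adjusted p = 0.0374). With each of the 14 mice left out in turn, Os9, Ssr4 and Srp68 passed in all fits and Sec61a1 in 6. Each of these 4 genes beside Herpud1 had ranges that did not overlap between the diets, as 5.18% of all genes did with the high-calorie mice lower. They were named because they passed, so their separate ranges are no added support.

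None of 12 sensors, processing proteases and transcription factors passed, against 9.44% of all genes, with a median of 0.0057. The sensor gene Atf6 had no matched probe and the protease gene Mbtps2 was below the filter, so neither was tested. The smallest p-values belonged to Mbtps1, the site-1 protease that cleaves ATF6, at 0.16 ± 0.064 (SE, limma adjusted p = 0.129), and Wfs1, a regulator of ATF6, at -0.16 ± 0.078 (SE, limma adjusted p = 0.204). Of the 12, Mbtps1 alone had an unadjusted limma p under 0.05, against 27.6% of all genes.

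Of 31 genes of the ATF4 and CHOP branch 2 fell, 1 rose and 28 did not pass, with a median of -0.048. Over all genes 9.44% passed and 4.07% fell. Sars, the seryl-tRNA synthetase, lay between 0.56 and 0.76 on the standard diet and between 0.28 and 0.48 on the high-calorie diet, and fell by 0.30 ± 0.050 (SE, limma adjusted p = 0.00262). Ppp1r15b, a subunit of the eIF2alpha phosphatase, fell by 0.27 ± 0.064 (SE, limma adjusted p = 0.0207), with standard-diet mouse 2 inside the high-calorie range. Vldlr, the lipoprotein receptor, rose by 0.17 ± 0.036 (SE, limma adjusted p = 0.0118), with no overlap.

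**Figure D4:**
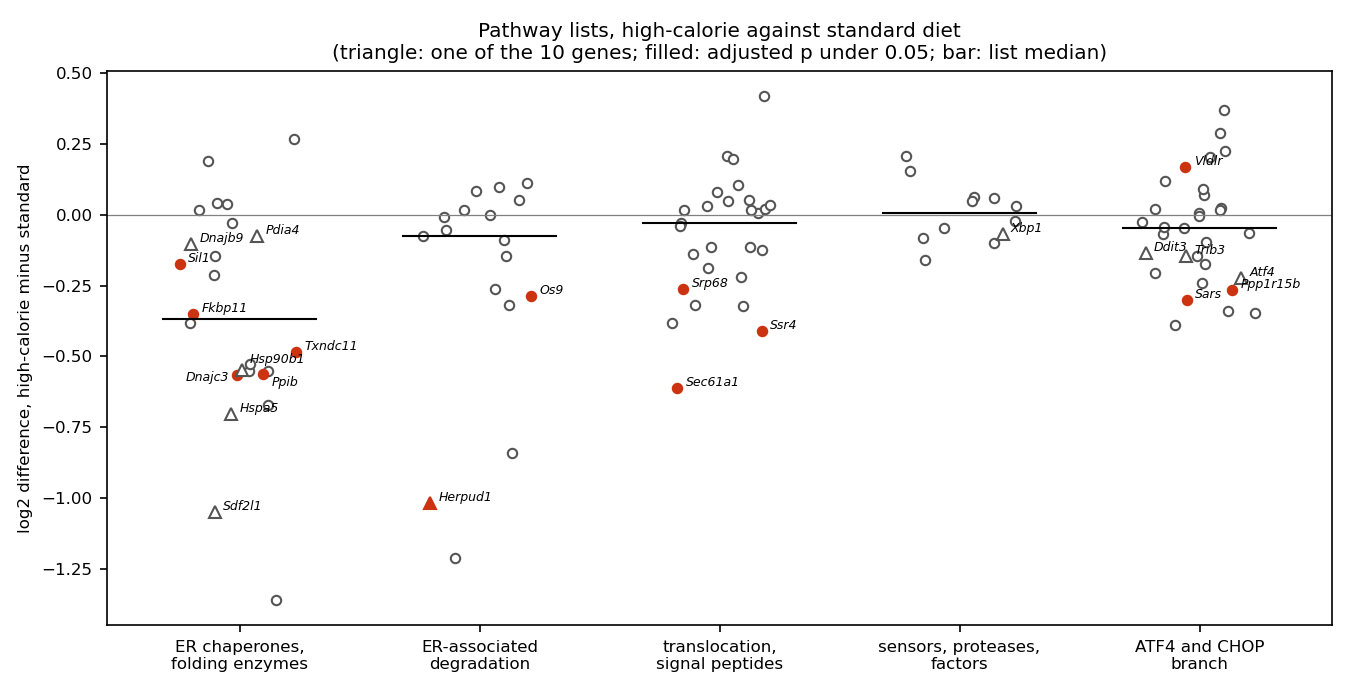
Each point is the log2 difference of high-calorie minus standard-diet mice for 1 gene of the 5 pathway lists, with triangles for the 10 chosen genes, filled symbols for an adjusted p under 0.05 and bars for list medians. The chaperone list has a median of -0.37, and the bars of the other 4 lists lie between -0.075 and 0.0057.

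Marker lists of other liver cells were read beside these lists. Between high-calorie and standard-diet mice the mean log2 ratio of 11 Kupffer cell and macrophage markers did not overlap (-0.49 to -0.23 against -0.84 to -0.55), nor did that of 7 stellate cell markers (0.21 to 0.37 against -0.14 to 0.14). The lists of secretory cells outside the hepatocyte overlapped: plasma cell and B cell markers (9 genes) were at -0.039 to 0.19 against -0.16 to -0.012, and pancreatic acinar markers (6 of 10 listed) at -0.11 to -0.024 against -0.032 to 0.030. The 10 hepatocyte markers were at 0.13 to 0.54 against 0.47 to 0.74. No marker used was below background on every array, and the part of these cells in the chaperone values was not tested.

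With resveratrol added, 3 of the 111 pathway genes rose and 1 fell, where 5.39% of all genes passed and 3.16% rose. Besides Trib3, Fkbp11 rose by 0.40 ± 0.10 (SE, limma adjusted p = 0.0359) and Srprb, of the signal recognition particle receptor, by 0.21 ± 0.057 (SE, limma adjusted p = 0.0464), while Vldlr fell by 0.21 ± 0.038 (SE, limma adjusted p = 0.0108). All 4 resveratrol mice lay outside the high-calorie range in each, and 13% of all genes had ranges that did not overlap. Since the genes were picked by passing, this is no added support. Of these calls only that of Vldlr passed with each of the 14 mice left out. It passed in 29 of 35 settings and was lost with median centring, in the Cy3 channel alone and with the deposited scores. With 1 mouse left out Fkbp11 passed in 7 and Srprb in 3 fits, and neither passed with median centring or with day, slide series or replicate number as a block. By limma 0 of 17 ER-associated degradation genes and 0 of 12 sensors, proteases and transcription factors passed, with 3 and 1 at an unadjusted p under 0.05, against 22.2% of all genes. The lowest p-values on those lists were those of Herpud2 (-0.11), Os9 (0.14), the PERK gene Eif2ak3 (-0.31) and the IRE1 gene Ern1 (-0.086). Against the standard diet Sars was the only one of 111 to pass, at -0.36 ± 0.053 (SE, limma adjusted p = 0.013). The chaperone list had a median of 0.11 against the high-calorie diet, which was 0.0053 without resveratrol mouse 3, 0.0033 with median centring and -0.13 without resveratrol mice 3 and 4, where 18 of 24 were lower. Against the standard diet its median was -0.21, and it was -0.12 without resveratrol mouse 2 and -0.41 without mice 3 and 4. Among genes that did not pass against the standard diet, Syvn1, the HRD1 ubiquitin ligase, was at -1.06 ± 0.40 (SE, limma adjusted p = 0.369), with standard-diet values spread from 0.14 to 2.54.

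Genes with an exact stress element in their promoter were listed whatever their function. Of 26 tested genes with ERSE or ERSE-II in a window, 19 had a lower mean in high-calorie than in standard-diet mice, 2 fell (Herpud1 and Dnajc3) and 1 rose (Rbm39, a splicing factor, at 0.34, limma adjusted p = 0.0448), against 9.44% of all genes passing and 50.8% with a difference below 0. The 3 that belong to the 10 genes had a median of -0.70, the 8 other pathway genes a median of -0.56, and the 15 remaining genes a median of -0.010. The 8 were Dnajc3, Derl3, Creld2, Syvn1, Ero1b, Calr, Dnajb11 and Canx, of which Canx, the membrane lectin chaperone calnexin, was the only one not lower, at 0.19. Creld2, a secreted ER stress protein, had the widest difference at -1.36 ± 0.41 (SE, limma adjusted p = 0.0526). These groups are described by their medians with no test, and the pathway lists were built from known stress genes.

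**Figure D5:**
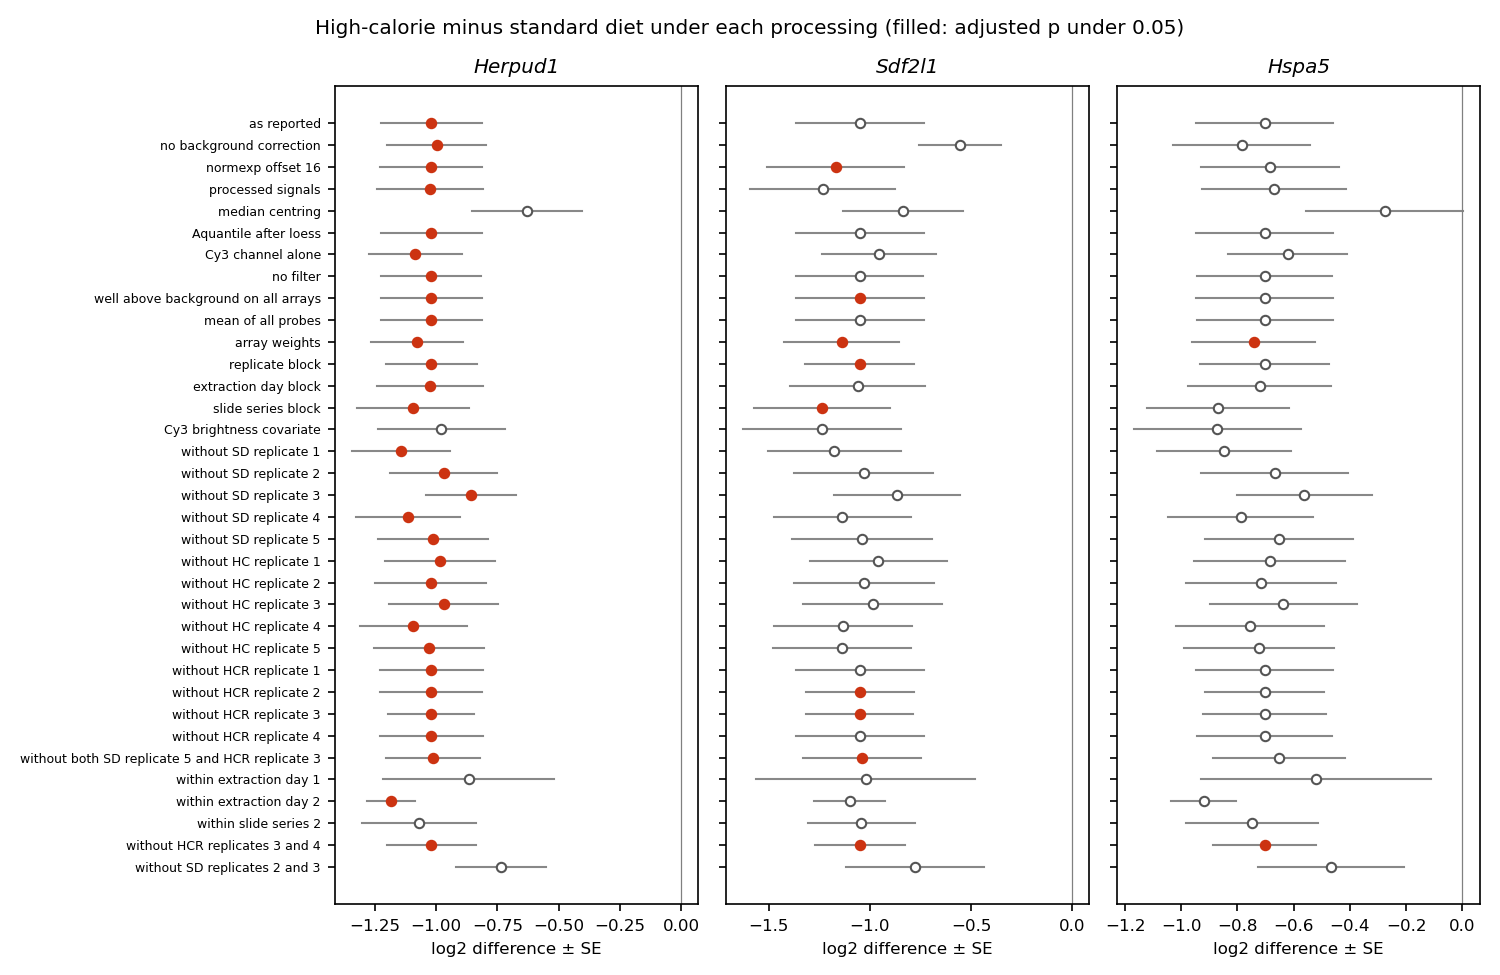
Points show the log2 difference of high-calorie minus standard-diet mice and lines its SE for Herpud1, Sdf2l1 and Hspa5, under each way of processing the arrays other than the deposited scores, and when leaving out mice or staying within a batch, with filled points for an adjusted p under 0.05. All points lie below 0, and those of Herpud1 run from -1.18 to -0.63.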

How the data were processed

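Spot and local background intensities of both dyes were deposited as scanner files, written by Agilent Feature Extraction 7.5.1 per the file headers. The authors also deposited a table of values in score units, with a mean of 0 on each array, which follows the log Cy3 signal (r = 0.983 to 0.985). No source used here says how the scores were made. RNA came from RNeasy columns and linear amplification, per the labels' protocols.

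Spot means were corrected with normexp (offset 50), and ratios were normalised by loess within arrays with control spots at weight 0. The 576 spots with an outlier flag were left out, spots of a probe were averaged, and the brightest probe stood for a gene. Probes were matched to RefSeq genes (GRCm38.p6), 20860 to 1 gene and 20314 to none, the latter kept under their deposited names. A gene was tested if 4 or more arrays had it well above background in Cy3, which left 32672 of 36092. One model of the 3 diets was fitted in limma 3.58.1 (R 4.3.3), with Benjamini-Hochberg adjustment over all genes and a threshold of 0.05. Single probes were fitted in the same way over 37136 probes. The model was run on simulated ratios with the same spread in each diet and no batches. That run cannot show how the model handles the unequal spreads and batches of these arrays. The share of probes well above background was 77.9% to 92.4% per array, and the number of arrays limits the precision.

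Nothing in the labels ties equal replicate numbers together, and p-values measure the spread between these mice. The 10 genes, the pathway and marker lists and the motifs were chosen with earlier results of these data known. Genes named were the 10 whatever their result, up to 4 passing genes per list and comparison with the smallest adjusted p (or up to 2 with the smallest p where none passed), and the 5 most like Hspa5 and Herpud1. Txndc11 and the genes named for a stress element in their promoter fall outside this rule and were chosen after their values were seen. Within-batch fits and those without 2 mice of a diet were chosen after seeing the data.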

Additional observations from a re-analysis of the deposited data

Results flagged for a closer look

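In groups of 4 or 5 mice, a mouse was listed when its gap to the nearest other mouse took up an unusually large share of the group's range. Of 45 such groups over the probes of the 10 genes 4 were listed, and chance alone lists about 1 in 20 groups. Herpud1 in resveratrol mouse 3 was at 0.8253, with the nearest mouse at 0.045. Xbp1 in high-calorie mouse 3 was at -0.0377, with the nearest at 0.27. The dim second probe of Trib3 was at 0.6618 in resveratrol mouse 2, with the nearest at 0.0066. The linked probe of Dnajb9 that passed between diets was at 0.015 in high-calorie mouse 4, with the nearest at -0.15. Without resveratrol mouse 3, Herpud1 in resveratrol minus high-calorie mice was at 0.17 (limma adjusted p = 0.71).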

How the results depend on the processing

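Herpud1 was lower in high-calorie than in standard-diet mice under all 35 settings run, from -1.18 to -0.63 on the log2 scale (-0.51 in score units), and passed in 30. Of these settings 1, which equalises spot brightness between arrays after loess, leaves the ratios unchanged and repeats the reported fit. Herpud1 has 1 probe, so changing the filter or averaging probes cannot change its difference either, only its p-value. The same holds for leaving out resveratrol mice, and with replicate number as a block the difference stayed at -1.02. The count of settings is therefore no count of separate checks. Sdf2l1 passed in 9 of 35 and Hspa5 in 2. Trib3 in resveratrol minus high-calorie mice passed in 8 of 35, and in 2 of the 14 that leave out 1 mouse. For high-calorie minus standard diet the number of the 10 genes passing, 1 as reported, was 2 with an offset of 16 and with replicate number or slide series as a block. It was 3 with genes well above background on all arrays, without both standard-diet mouse 5 and resveratrol mouse 3, and without resveratrol mice 3 and 4, and 4 with array weights. It was 0 with median centring, with Cy3 brightness as a covariate, within extraction day 1, within slide series 2 and without standard-diet mice 2 and 3, and 1 to 2 with each mouse left out in turn (2 without standard-diet mouse 5 or resveratrol mouse 1, 2 or 3).

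For resveratrol minus high-calorie the number, 1 as reported (Trib3), was 0 with an offset of 16, processed signals, median centring, the Cy3 channel alone, the scores, no filter, the replicate block, the day and slide series blocks, the brightness covariate, without both standard-diet mouse 5 and resveratrol mouse 3, within day 1, within either slide series and without resveratrol mice 3 and 4. In series 2 the 1 resveratrol mouse is assumed to vary like the others. It was 0 to 1 with each mouse left out (1 without standard-diet mouse 2 or 5). For resveratrol minus standard diet it was 0 throughout.

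Sign changes all concerned differences that did not pass under either setting. With median centring high-calorie minus standard diet turned to 0.0296 (Ddit3), 0.1128 (Pdia4), 0.0786 (Trib3) and 0.0805 (Xbp1), resveratrol minus high-calorie to -0.011 (Ddit3), -0.0338 (Hsp90b1) and -0.103 (Hspa5), and resveratrol minus standard diet to 0.0186 (Ddit3). Pdia4 in high-calorie minus standard diet was 0.041 without background correction, 0.0909 within day 1 and 0.1714 without standard-diet mice 2 and 3, Dnajb9 was 0.0669 within day 1, and Xbp1 was 0.0812 within day 2. Without resveratrol mice 3 and 4, resveratrol minus high-calorie was -0.0921 (Atf4), -0.0338 (Ddit3), -0.0422 (Hsp90b1), -0.3835 (Hspa5), -0.0062 (Pdia4) and -0.2219 (Sdf2l1). Within slide series 2 it was -0.033 (Ddit3), -0.0661 (Hsp90b1), -0.517 (Hspa5), -0.0906 (Pdia4) and -0.4907 (Sdf2l1). Hspa5 was -0.0012 in the Cy3 channel alone, -0.029 with array weights, -0.0267 with the slide series block and -0.0852 without both standard-diet mouse 5 and resveratrol mouse 3. Atf4 was -0.0116, -0.0886 and -0.0259 with array weights, with the day block and without the same pair of mice. Resveratrol minus standard diet turned to -0.0187 (brightness covariate), -0.0626 (Cy3 alone), -0.0385 (scores), -0.0101 (slide series block), -0.1572 (within slide series 2) and -0.0818 (without resveratrol mice 3 and 4) for Pdia4, to -0.1085 (Cy3 alone), -0.0615 (scores), -0.0214 (within slide series 2) and -0.0047 (without both mice) for Trib3, and to 0.0336 (without standard-diet mice 2 and 3) for Hsp90b1. With each mouse left out in turn the ranges that cross 0 were -0.0259 to 0.103 (Atf4), -0.4083 to 0.0351 (Dnajb9) and -0.0852 to 0.3467 (Hspa5) for resveratrol minus high-calorie, -0.2397 to 0.0527 (Dnajb9), -0.2317 to 0.0199 (Pdia4) and -0.2326 to 0.0435 (Xbp1) for high-calorie minus standard diet, and -0.0912 to 0.1604 (Pdia4) and -0.0047 to 0.0514 (Trib3) for resveratrol minus standard diet. The causes were not tested.

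All genes called numbered 3084 for high-calorie against standard diet, 448 with the brightness covariate, 413 with the scores, 954 in the Cy3 channel alone, 7024 with array weights and 1379 (without high-calorie mouse 5) to 5995 (without standard-diet mouse 5), or 4.22% to 18.3% of genes, with each mouse left out, and for resveratrol minus high-calorie 1760, 407 with the replicate block, 120 with median centring and 352 to 2573 with each mouse left out. The share of called genes that were higher was 58.7% for the latter and 25.8% with median centring. Between mice of equal replicate number r ran from -0.186 to 0.3 over the 3 comparisons, which cannot show whether the numbers pair mice. With the number as a block Sdf2l1 passed in high-calorie minus standard-diet mice (adjusted p = 0.0407 in limma), and Trib3 in resveratrol minus high-calorie mice did not (0.134).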

Other observations

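Creld2 and Calr, chosen for their stress element after their values were seen, showed the mouse-to-mouse spread of the folding genes in 2 sizes. Creld2, a secreted ER stress protein, was at -0.56, 1.21, 0.96, -0.67 and 0.17 in standard-diet, -1.22, -1.15, -1.42, -1.01 and -0.89 in high-calorie, and -1.03, -1.76, 0.55 and -0.32 in resveratrol mice. The high-calorie mice were all low, and the mice of the other diets fell on both sides of 0. Calr, the lectin chaperone calreticulin, ran from 0.82 to 1.46 on the standard diet, from 0.53 to 0.78 on the high-calorie diet and from 0.64 to 1.15 with resveratrol, so the high-calorie mice were again below all standard-diet mice, by 0.38 ± 0.12 (SE, limma adjusted p = 0.0619). Resveratrol minus high-calorie was 0.29 ± 0.13 (SE, limma adjusted p = 0.206) for Calr. Syvn1 stood out by standard-diet mouse 2, at 2.54, against -0.26 to 0.016 in high-calorie mice.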
